A study of Mus musculus with 13 samples.

Results

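Microglia sorted from the cortex before birth, at E16 and E18, were compared with microglia sorted after birth, at P1. The comparison used 5 of the 13 samples of the series, 1 at E16, 2 at E18 and 2 at P1. Each pooled wild-type embryos or pups of the strain C57Bl/6N, labelled as of mixed sex. The prospective somatosensory cortex was cut out, its meninges removed, and cells were released on ice with no enzyme before FACS collected cells gated CD11b+, CD45low and Cx3cr1+, with no treatment and no altered allele. Cells were the barcodes that reached 500 genes with no more than 20% mitochondrial counts, and the counts of spliced unique molecular identifiers (UMIs, each marking 1 RNA molecule) were summed over the cells of each sample. This gave 18159 of the 28603 cells of the series, 10803 before birth and 7356 after it. Each sample is 1 pool and 1 library, so a p-value measures the spread between pools and libraries and not between animals. Where E16 and E18 form 1 group, that spread also holds their difference in age. The question was which genes differed between the late embryonic and the newborn cortex, with direction read from both P1 samples.

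Microglia are the resident macrophages of the brain. They enter it early in development from the yolk sac, divide there while the cortex grows, and take up dying cells, debris and synaptic material. Cell division is prepared in S phase, in which the genome is copied. A helicase of MCM proteins unwinds the DNA for this, and other enzymes supply nucleotides. At birth the pup leaves an environment of low oxygen, begins to breathe, and meets microbes and changed hormone levels. The response to low oxygen runs through the transcription factor HIF, which binds short ACGTG elements beside its target genes.

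Libraries were uneven. E16 had 3709 cells, E18 replicate 1 had 3687, E18 replicate 2 had 3407, P1 replicate 1 had 550 and P1 replicate 2 had 6806. The fewest spliced UMIs in cells were 5026919, in P1 replicate 1, the most 39134336, in P1 replicate 2, and the median per cell from 3601 at E16 to 7480 in E18 replicate 2. Mitochondrial UMIs were 6.47% at E16 and 9.21% in P1 replicate 1, against 2.96% to 3.99% in the others. Unspliced UMIs were 41.6% and 38.2% of all UMIs in the cells of the E18 replicates, against 24.6% at E16 and 27.3% and 23.2% at P1, and since levels are of spliced UMIs, the part of this in the comparisons was not tested. Cells held 41.1% of all spliced UMIs in P1 replicate 1 and 49.6% at E16, against 82.9% to 91.7% in the other 3. No pair of the 5 libraries shared more than 9 cell barcodes. By the main component of the ribosomal protein genes, E16, E18 replicate 1 and P1 replicate 2 fell on one side and E18 replicate 2 and P1 replicate 1 on the other, so that each side held samples from before and after birth. UMIs of at least 3 of 9 microglial markers, outnumbering those of other cell types, were found in 93.1% to 97.6% of cells in each of the 5 samples.

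Between the samples before birth and those after it, 12636 genes were tested, and edgeR's quasi-likelihood test called 0.0% of them at an adjusted p of 0.05. The smallest adjusted p was 0.193. At an unadjusted p of 0.05 there were 1927 genes, 15.3% of those tested, 974 higher (7.71%) and 953 lower (7.54%) at P1. DESeq2 on the same sums called 377 genes (2.98%), 160 higher (1.27%) and 217 lower (1.72%). The spread between samples was wide, with a biological coefficient of variation of 0.327. A fit that drew its spread from all 13 samples called 448 of 13296 genes (3.37%), 305 higher (2.29%) and 143 lower (1.08%). A fit with the side of the ribosomal component as a term called 156 (1.23%), 70 higher (0.554%) and 86 lower (0.681%). No gene below therefore passed the main test, and log2 fold changes (P1 over the 3 earlier samples) are given with their standard error and unadjusted p. Levels are CPM of spliced UMIs, with each sample's total multiplied by its TMM factor, a correction for differences in composition between libraries.

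The 2 P1 samples lay on the same side of the earlier mean for 8228 genes, 3802 higher (30.1%) and 4426 lower (35%). Both P1 values exceeded all 3 earlier ones for 1854 genes, 14.7% of those tested, and both lay under all 3 for 2073, or 16.4%. For 4408 genes, 34.9%, the P1 samples lay on opposite sides. The median log2 fold change over all genes tested was 0.016.

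**Figure D1:**
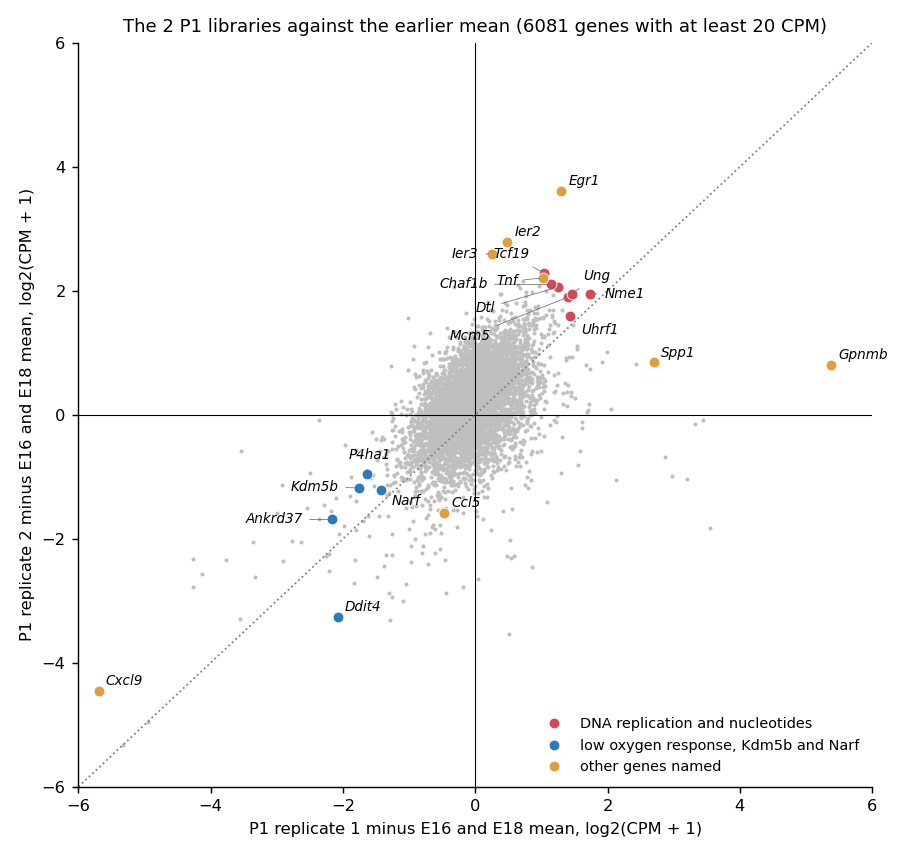
Each point is 1 of 6081 genes with a mean of at least 20 CPM in either group; the axes give the level in P1 replicate 1 and in P1 replicate 2 minus the mean of the 3 earlier samples, on the log2(CPM + 1) scale, and the dotted line marks equal differences. The labelled genes of replication and nucleotides lie at upper right, and Ankrd37, Ddit4, P4ha1, Kdm5b and Narf at lower left, while Spp1 and Gpnmb lie high mainly in replicate 1 and Egr1, Ier2 and Ier3 mainly in replicate 2.

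A second fit used the age of all 13 samples. It drew a straight line through the embryonic levels, with age in days from E12, and tested whether P1 departed from it, so it asks about P1 beyond a continued embryonic course. Of 13296 genes tested, 20.7% passed at an adjusted p of 0.05, 1470 above the line (11.1%) and 1283 below it (9.65%). With a curved embryonic course 647 genes passed, 422 above and 225 below. The P1 term below is the departure from the straight line in log2 units. The spread behind its p-value also holds any curve in the embryonic course.

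Genes of DNA replication were higher at P1. Of the 32 tested genes of the undivided proliferation list, 13 had P1 values above all earlier ones and none below, against 14.7% and 16.4% of all genes, and 19 of 33 passed above the embryonic line, against 11.1%. Of 14 replication genes, a subset of the proliferation list divided by function after its values were known, 12 were tested, and in 11 both P1 samples lay above all 3 earlier ones, against 14.7% of all genes. Their median log2 fold change was 1.39, against 0.016 over all genes tested. In sums over cells, more cells that express a gene and more of its RNA per cell cannot be told apart. The same 11, Pcna, Mcm2 to Mcm7, Tyms, Rrm1, Rrm2 and Dut, lay above the embryonic line with an adjusted p under the threshold, against 11.1% of all genes. With the ribosomal component as a term, 7 of the 12 passed the test across birth, against 0.554% of all genes. Gins2 and Tk1 were too low to be tested across birth, and Pclaf overlapped between the groups.

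Mcm5, a subunit of the replicative helicase, stood at 35.1 CPM at E16, 22.4 and 29.0 CPM in the E18 replicates, and 78.0 and 110.2 CPM in the P1 replicates. Its log2 fold change was 1.71 (SE 0.268, unadjusted p 0.000106) and its P1 term 2.54 (SE 0.326, edgeR adjusted p 0.000534). Its mean was 106.0 CPM at E12 and 64.4 CPM at E15, so that both P1 values stood nearer to those ages than to E16 and E18. Uhrf1, Dtl and Chaf1b are on no list and stand here for their small unadjusted p. Uhrf1, which reads hemimethylated DNA at replication forks and recruits the maintenance methyltransferase, had 18.3, 14.3 and 16.9 CPM before birth and 46.3 and 51.8 CPM after it. That difference was 1.58 (SE 0.236, unadjusted p 7.3e-05), and its P1 term was 2.44 (SE 0.309, edgeR adjusted p 0.000512). Dtl, the substrate receptor of an S-phase ubiquitin ligase, was measured at 12.99, 14.3 and 18.8 CPM and then at 38.1 and 67.3 CPM. Chaf1b, a subunit of the complex that loads histones on new DNA, had 8.89, 6.84 and 8.31 CPM and then 18.95 and 37.7 CPM. Fold changes of Dtl and Chaf1b were 1.78 (SE 0.28) and 1.82 (SE 0.303) on the log2 scale, and their P1 terms 2.21 and 2.66 passed with edgeR adjusted p of 0.00223 and 0.000534. All 4 were taken with both P1 values above all earlier ones, so P1 was bound to be higher within each side of the ribosomal component.

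By a fixed rule 12 genes were taken on each side, those with the smallest unadjusted p among genes whose groups did not overlap. The mean had to reach 20 CPM either before birth or at P1. On the higher side Uhrf1, Dtl, Chaf1b, Egr1, Ung, Tcf19, Gla and Ndufs5 reached it only at P1. On the lower side all but Tsc22d3 and Hbb-bs reached it only before birth. Beside the 4 above, the higher 12 held others with related roles. Ung, the uracil glycosylase that repairs newly made DNA, was at 7.62 to 15.1 CPM before birth and at 31.6 and 44.6 CPM after it (log2 fold change 1.82, SE 0.309). Tcf19, a gene of the G1 to S boundary, had 8.44 to 12.03 CPM and then 21.6 and 53.0 CPM (1.89, SE 0.339). In unspliced UMIs, which come from unprocessed transcripts, Tcf19 turned to -0.16. Mcm2 was 1.41 higher (SE 0.257). Outside the 12, Mcm6 was 1.43 higher (SE 0.291), and Syce2, known for the synaptonemal complex of meiosis, had 10.5 to 18.98 CPM and then 32.2 and 62.2 CPM, with a P1 term of 2.67 (edgeR adjusted p 0.000785). Hmga1, a chromatin protein of growing fetal cells with near-identical copies in the genome, had 7.3 to 11.99 CPM and then 18.3 and 42.1 CPM (1.55, SE 0.351). Under the curved course, Uhrf1, Mcm5, Dtl, Chaf1b, Mcm2, Mcm6 and Syce2 still passed, whereas Ung, Tcf19 and Hmga1 did not.

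**Figure D2:**
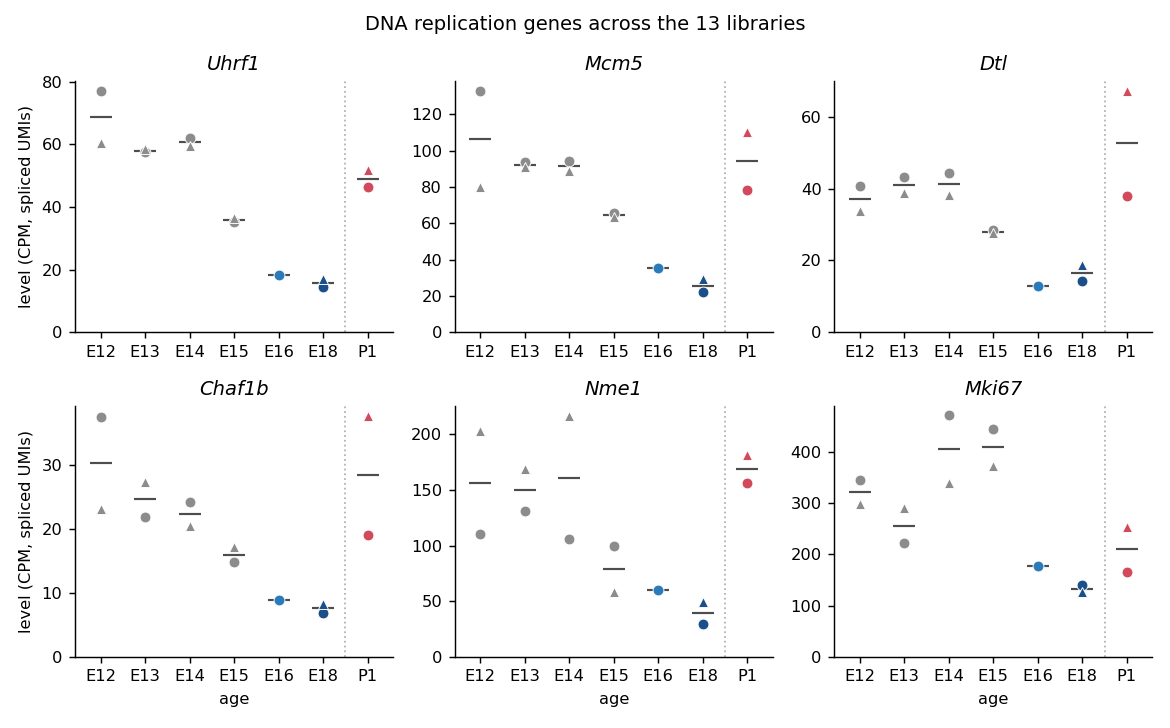
Levels in CPM of spliced UMIs (y axis, from 0) by age (x axis) for 6 genes in the 13 libraries; circles are replicate 1, triangles replicate 2, horizontal bars the mean of each age, and the dotted line separates embryonic ages from P1. Uhrf1, Mcm5, Dtl, Chaf1b and Nme1 have their lowest age means at E16 and E18 and are higher in both P1 libraries than at those ages, while Mki67 at P1 (165.7 and 253.2 CPM) overlaps E16 (177.5 CPM).

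Genes of mitosis and of chromatin in dividing cells gave other counts. Of the 20 other genes of the proliferation list, 2 had P1 values above all earlier ones, a share under the 14.7% of all genes, and 8 passed above the embryonic line, against 11.1%. The difference from the replication genes was not tested. Their median log2 fold change was 0.77. Mki67, a marker of cycling cells, stood at 177.5, 140.6 and 125.6 CPM before birth and at 165.7 and 253.2 CPM after it, so that the groups overlapped (log2 fold change 0.5, SE 0.286, unadjusted p 0.115). Top2a, the topoisomerase that untangles chromosomes, also overlapped, with 200.8, 146.5 and 193.7 CPM and then 192.1 and 408.3 CPM. Its P1 term of 0.95 had an edgeR adjusted p of 0.157. Both P1 samples were not alike here: in P1 replicate 2 the mitotic genes summed to 4592 CPM and in P1 replicate 1 to 2353 CPM, against 2806 CPM at E16 and 1706 and 1977 CPM at E18. Without E18 replicate 1, 1 of the 20 passed above the line, against 605 of 13017 genes in all. Without E18 replicate 2, 2 passed, against 1161 of 13093. In both fits the count of replication genes was 10 or 11. The summed replication genes were 597.7 CPM at E16, 381.2 and 485.1 CPM at E18, and 994.4 and 1509 CPM at P1.

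The share of cells with such UMIs was counted after each cell was thinned to 1000 UMIs, so that depth did not set it. At least 2 UMIs of the replication genes were found in 11.7% of cells at E16 (95% exact binomial interval 10.7 to 12.8, for counting error only), 8.38% and 9.23% in the E18 replicates, and 22.1% (18.6 to 25.8) and 30.3% (29.2 to 31.4) in the P1 replicates. P1 exceeded the earlier samples by 16.4 percentage points, and the 2 groups did not overlap. For the mitotic genes the shares were 33.6% at E16, 17.9% and 17.0% at E18, and 26.7% and 43.3% at P1, and E16 lay between the P1 values. For the whole proliferation list they were 42.4%, 24.1% and 24.0%, then 42.5% and 57.3%, a difference of 19.7 points between means of 49.9% ± 10.5 (SD) after and 30.2% ± 10.6 before birth. The exact two-sided permutation test gave p = 0.2 for the replication genes and for the whole list, which is the smallest p that 10 splits allow, and p = 0.4 for the mitotic genes. Unthinned, the list was found in 79.6%, 60.0% and 74.2% and then 82.9% and 84.2% of cells. At E16, 118 cells had too few UMIs to be thinned, at E18 72 and 16, and at P1 6 and 128. Cells at exactly 2 UMIs of the list numbered 527, 246, 236, 64 and 718 in sample order, and those 1 UMI under the cut 918, 814, 736, 121 and 1167.

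Cells that carried neuronal markers gave a background for the replication genes. Of 115 such cells in E18 replicate 1, 6.09% had at least 2 replication UMIs at a median depth of 6112 UMIs, against 8.38% of all its cells at 4708. In E18 replicate 2 it was 4.88% of 41 cells at 3123 UMIs against 9.23% at 7492. E16 had 14 neuron-like cells, P1 replicate 2 had 11 and P1 replicate 1 none, too few for a share to be read. The E18 shares lay within the exact intervals of these backgrounds (2.48 to 12.1 and 0.596 to 16.5). Both P1 shares lay above these E18 intervals. The intervals are of other libraries and of counting error only, and do not bound the background at P1. P1 replicate 2 had too few neuron-like cells to bound its own background (0.23 to 41.3, which held its 30.3%). At a cut of 1 UMI the replication shares were 29.6%, 22.4% and 24.2% and then 44.3% and 51.1%, and the interval of E18 replicate 2's neuron-like cells (16.1 to 45.5) held the lower of the P1 shares. Droplets without a cell held replication transcripts too, at 546.3, 471.1 and 469.8 CPM before birth and 1001 and 996.1 CPM at P1, and the part of such free RNA in the shares was not tested. The same neuron-like cells carried the whole proliferation list, which holds the neuronal gene Stmn1, far more often than other cells. In the E18 replicates 87.8% and 68.3% of them had at least 2 of its UMIs, against 24.1% and 24.0% of all cells. At least 1 UMI of the mitotic genes was in 96.5% and 80.5% of them, against 35.6% and 35.3%. The shares for the whole list and for the mitotic genes count cells with such UMIs, and are not read as shares of dividing cells.

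**Figure D3:**
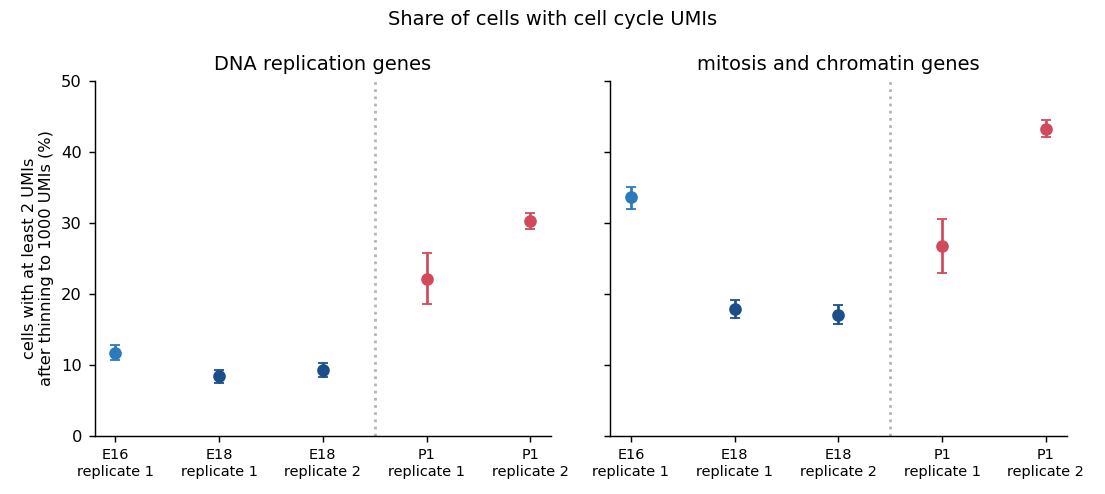
Percentage of cells with at least 2 UMIs of replication genes (left) or of mitosis and chromatin genes (right) after thinning each cell to 1000 UMIs; points are samples and bars 95% exact binomial intervals. Both P1 samples exceed all earlier ones on the left (22.1% and 30.3% against at most 11.7%), while E16 (33.6%) lies between them on the right.

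The promoters of the leading genes were read from RefSeq (GRCm38.p6) as the 250 bases before each start. The E2F factors, which drive S-phase genes, bind sites whose core was searched as TTGGCGC and as its variants TTCCCGC and also TTGCCGC and finally TTCGCGC, on both strands. At least 1 of these was in the windows of 16.5% of the tested genes that had one, in 6 of the 11 matched genes among the 12 leading the higher side (Uhrf1, Mcm5, Dtl, Chaf1b, Tcf19 and Gla), in 5 of 12 matched replication genes and in 3 of 13 matched mitotic genes. Among the 12 leading the lower side, 2 of 11 matched genes held one, Kdm5b and Map2. A match is a description of letters and not a bound site. The stretches below are shown because they hold such a match in Uhrf1, Mcm5, Dtl and Chaf1b, 4 genes of the higher 12, of which only Mcm5 is on the proliferation list, 5′ to 3′ along the gene, with each match in capitals. That of Mcm5 holds 3, of which 2 overlap. Each match lies outside annotated exons. The stretches are at chr17:56303269-56303315 (+), chr8:75109340-75109386 (+), chr1:191575545-191575571 (-) and chr16:93883654-93883700 (+).
Uhrf1: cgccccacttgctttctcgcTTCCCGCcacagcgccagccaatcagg
Mcm5: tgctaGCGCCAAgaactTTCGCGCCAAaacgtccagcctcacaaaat
Dtl: tcagaaagcgtgacgtcagtTTGGCGC
Chaf1b: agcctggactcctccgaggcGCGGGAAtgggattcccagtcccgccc

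Nuclear genes of the respiratory chain were a further list with many members higher at P1, and 3 enzymes stood among the higher 12 genes. Nme1, which makes nucleoside triphosphates, had 60.3, 29.3 and 49.3 CPM before birth and 156.1 and 181.3 CPM after it, with no overlap. Its log2 fold change was 1.88 (SE 0.314, unadjusted p 0.000176) and its P1 term 2.81 (SE 0.506, edgeR adjusted p 0.00239). Got1, an aspartate aminotransferase that links amino acids to the mitochondrial shuttle, was at 31.9, 26.8 and 22.1 CPM and then 61.7 and 89.2 CPM (1.49, SE 0.263), also above its E12 mean of 39.4 CPM. Gla, a lysosomal galactosidase, had 7.44 to 9.09 CPM and then 19.6 and 24.5 CPM (1.41, SE 0.256). Among 51 nuclear genes of the respiratory chain, 27 had P1 values above all earlier ones and none below, against 14.7% and 16.4% of all genes. Their median log2 fold change was 0.6, and 29 passed above the embryonic line, none below it, against 11.1% and 9.65% of all genes. With the ribosomal component as a term, 1 of the 51, Ndufs5, passed the test across birth, against 0.554% of all genes. The list holds a part of such genes and was chosen with earlier results of these data known. Ndufs5, a subunit of complex I, had 16.8, 11.1 and 20.2 CPM and then 46.5 and 45.6 CPM (1.54, SE 0.284). In unspliced UMIs Ndufs5 turned to -0.54. Ndufa5 and Ndufb8, also of complex I, were 0.96 (SE 0.343) and 0.9 (SE 0.343) higher.

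The size of that group depended on the samples and the course fitted. It summed to 15470 CPM at E16, 8468 CPM in E18 replicate 1, 13990 CPM in E18 replicate 2, and 18920 and 18090 CPM at P1, so that E18 replicate 1 stood lowest. Without that sample 9 members passed above the line, against 605 of 13017 genes in all. With the curved course 10 did, against 422 of 13296. Of the 13 genes encoded by the mitochondrial genome, 1 had P1 values above all earlier ones, mt-Nd1, at 4140, 1706 and 2163 CPM and then 7121 and 5108 CPM. These 13 genes make up the mitochondrial share of UMIs given above.

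Some genes of the low oxygen response were lower at P1. Ankrd37, a small ankyrin repeat protein induced by HIF, stood at 17.3, 25.5 and 22.6 CPM before birth and at 4.08 and 6.07 CPM after it. Both P1 values were below those of every embryonic library, including those at E14, with 11.7 CPM on average. Its log2 fold change was -2.07 (SE 0.313, unadjusted p 8.17e-05) and its P1 term -2.23 (SE 0.313, edgeR adjusted p 0.000745). Ddit4, an inhibitor of mTORC1 signalling under stress, was at 16.6, 38.8 and 57.6 CPM and then 8.15 and 3.03 CPM (-2.84, SE 0.619), with a P1 term of -3.34 (edgeR adjusted p 0.0115). P4ha1, the prolyl hydroxylase of collagen, was at 161.6, 303.7 and 237.6 CPM and then 74.4 and 120.8 CPM (-1.27, SE 0.347), with a P1 term of -1.83 (edgeR adjusted p 0.00177). Ankrd37, Ddit4 and P4ha1 also passed below a curved embryonic course.

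Of 17 tested genes of low oxygen signalling, separated from the other genes of their list after their values were known, 7 had P1 values below all earlier ones and 1 above, against 16.4% and 14.7% of all genes, and 5 differed in direction between the P1 samples. Beside those 3 they were Kdm3a, Pdk1, Ndrg1 and Slc2a1, named here after their values were seen. Kdm3a, a histone demethylase, had 32.2 to 39.3 CPM and then 20.4 and 22.5 CPM (-0.7, SE 0.244), and Pdk1, the kinase that holds back pyruvate oxidation, 52.4 to 91.2 CPM and then 48.3 and 40.6 CPM (-0.7, SE 0.298). Ndrg1 and Slc2a1 were under 3 CPM in each sample. Of the 17, 6 passed below the embryonic line and 2 above it, against 9.65% and 11.1% of all genes. With a curved course 3 passed below it, against 225 of 13296 genes in all. Car9, a carbonic anhydrase of the same response, went the other way, with 3.36 to 6.6 CPM and then 7.95 and 9.64 CPM (0.86, SE 0.378). Vegfa, the vascular growth factor, was at 1.01, 4.88 and 1.23 CPM and then 0.2 and 1.01 CPM, too low to be read.

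The other 16 genes of the same list, the enzymes of glycolysis and the cytokine Mif, were all tested. Among them 2 had P1 values above all earlier ones and none below, and their median log2 fold change was 0.05. Over the undivided list, 3 of 33 lay above and 7 below, no clear excess over the 14.7% and 16.4% of all genes. The 2 were Pgk1 and Mif. In unspliced UMIs Pgk1 turned from 1.12 to -1.57. Mif, which is no enzyme of glycolysis and was placed there only as not among the low oxygen genes, had 445.1, 299.3 and 428.8 CPM and then 525.9 and 592.5 CPM. Pgk1, Mif and Gapdh have many near-identical copies in the genome and Pgk1 and Gapdh were measured at only 5.86 to 20.5 CPM and 2.36 to 10.8 CPM, so their values are uncertain. Ldha, lactate dehydrogenase, overlapped between the groups, at 303.6 to 732.9 CPM.

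Other genes on the lower side were Kdm5b, a demethylase of H3K4, at 49.0, 61.4 and 49.5 CPM and then 15.1 and 23 CPM (-1.48, SE 0.272, unadjusted p 0.000364), and Narf, at 27.5, 40.9 and 46.8 CPM and then 13.7 and 15.9 CPM (-1.36, SE 0.293, unadjusted p 0.00107). Both passed below the embryonic line, with P1 terms of -1.6 and -1.84 and edgeR adjusted p of 0.00587 and 0.000999, and below a curved course too. Gpr35, a receptor of immune cells, was at 15.2, 31.8 and 22.2 CPM and then 7.74 and 6.72 CPM (-1.68, SE 0.37).

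**Figure D4:**
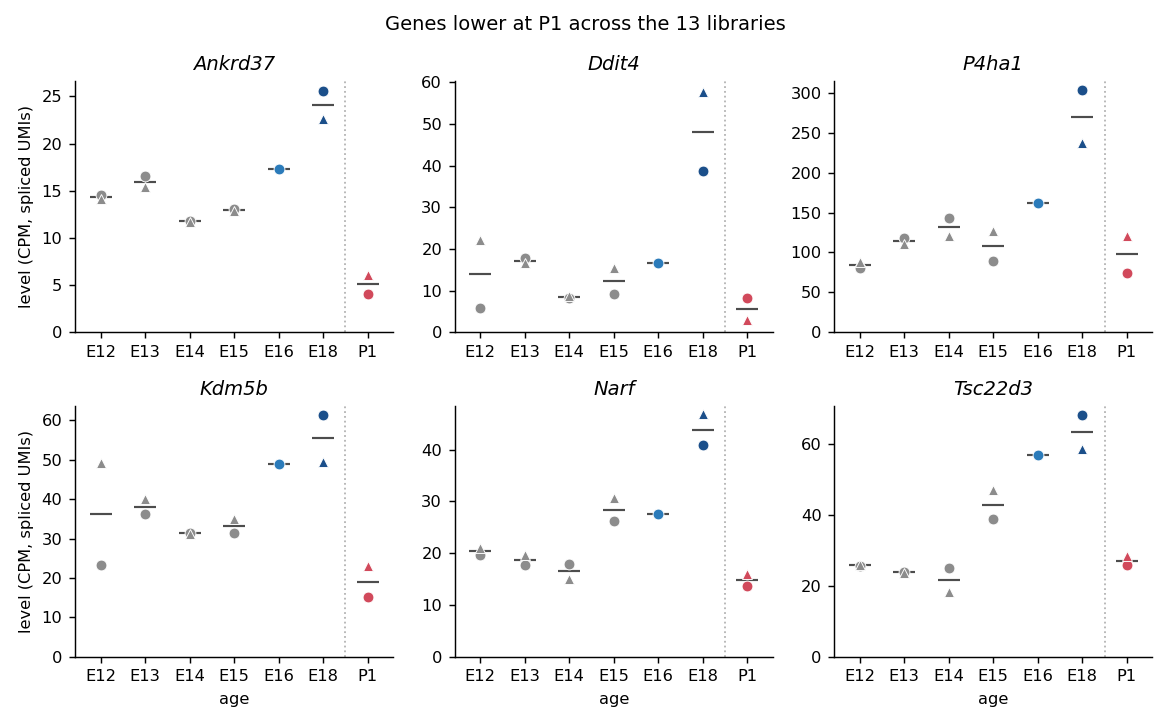
Levels in CPM of spliced UMIs (y axis, from 0) by age (x axis) for 6 genes lower at P1 in the 13 libraries; circles are replicate 1, triangles replicate 2, horizontal bars the mean of each age, and the dotted line separates embryonic ages from P1. All 6 stand higher at E18 than at E12 to E15 on average and lower in both P1 libraries than in the E16 and E18 libraries.

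The element ACGTG was searched in the same 250 bases, on both strands. It was in the windows of 25.1% of the tested genes that had one, in 12 of 16 matched genes of low oxygen signalling and in 7 of the 16 other genes of that list. Of the 11 matched genes among the 12 leading the lower side it was in 4, namely Ankrd37, Ddit4, Kdm5b and Gpr35. The share was the same on the higher side, with 4 of 11 matched genes, namely Gla, Nme1, Tcf19 and Uhrf1. The stretches below hold the match, in capitals, in the 3 low oxygen genes with the smallest p, 5′ to 3′ along the gene. Each match lies outside annotated exons, and the stretches are at chr8:46000067-46000100 (-), chr10:59951933-59951977 (-) and chr10:59323260-59323295 (+) of GRCm38.p6.
Ankrd37: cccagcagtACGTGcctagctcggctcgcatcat
Ddit4: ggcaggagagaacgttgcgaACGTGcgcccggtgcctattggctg
P4ha1: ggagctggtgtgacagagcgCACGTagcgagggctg

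Targets of glucocorticoid hormones were mixed. Of 22 tested, 5 had P1 values below all earlier ones and 2 above, near the 16.4% and 14.7% of all genes. Tsc22d3, an induced inhibitor of inflammatory signalling, stood at 56.8, 68.3 and 58.6 CPM and then 25.9 and 28.3 CPM (log2 fold change -1.17, SE 0.245, unadjusted p 0.000924), with a P1 term of -1.78 (edgeR adjusted p 0.00247). With a curved course its term was -2.09 and just failed to pass (edgeR adjusted p 0.0507). Its mean was 25.7 CPM at E12 and 63.5 CPM at E18, so that P1 stood close to E12. Txnip, which limits glucose uptake, had 31.2, 33.4 and 55.4 CPM and then 19.6 and 19.1 CPM (-1.03, SE 0.306). Mt1 and Mt2, the metal-binding metallothioneins, went the other way. Mt1 was at 388.8, 139.8 and 334.7 CPM and then 796.1 and 551.2 CPM, with a P1 term of 2.11 (edgeR adjusted p 0.0113), and Mt2 at 4.93 to 12.6 CPM and then 32.6 and 17.3 CPM. Fkbp5, a receptor chaperone often used as a readout of the hormone, overlapped, at 36.9 to 40.8 CPM before birth and 50.9 and 24.6 CPM after it.

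Immediate early genes, which respond within minutes to stimulation and to handling of cells, differed between the 2 P1 samples. Egr1 had 4.58, 3.92 and 3.6 CPM before birth and 11.4 and 60.7 CPM after it (log2 fold change 3.15, SE 0.522, unadjusted p 0.000167), with a P1 term of 3.14 (edgeR adjusted p 0.00363). In P1 replicate 1 all 56 of its UMIs lay in 10 cells, whereas 816 of 6806 cells had one in P1 replicate 2. Ier2 was at 15.0 to 24.5 CPM and then 29.3 and 148.8 CPM, Ier3 at 15.7 to 28.1 CPM and then 26.7 and 139.9 CPM, and Fos at 1.87 to 4.04 CPM and then 3.26 and 18.1 CPM. Without P1 replicate 2 the P1 terms of Egr1 and Ier2 were 1.56 and 0.9, from P1 replicate 1 alone, so that passing is not read from them. With a curved course they were 3.06 and 2.28 and did not pass (edgeR adjusted p 0.145 and 0.182). Btg2, an antiproliferative gene of the same list, was lower at P1, at 90.8, 129.0 and 110.2 CPM and then 55.2 and 53.1 CPM (-1.01, SE 0.268). Over the list of 28 tested genes, 3 lay above and 5 below all earlier samples, near the 14.7% and 16.4% of all genes.

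Inflammatory genes showed no shared direction. Tnf, a cytokine of activated macrophages, was at 4.38, 7.98 and 4.75 CPM and then 12.6 and 29.9 CPM (1.89, SE 0.393), above the embryonic line (P1 term 1.85, edgeR adjusted p 0.0171). Without P1 replicate 2 its term was 1.17, from P1 replicate 1 alone, so that passing is not read from it. With a curved course it was 0.86 and did not pass (edgeR adjusted p 0.578). Cxcl9, an interferon-induced chemokine, had 11.2, 125.1 and 16.1 CPM and then 0 and 1.37 CPM, and in E18 replicate 1 its 2742 UMIs lay in 225 of 3687 cells. Ccl5 was at 17.8, 913.2 and 141.8 CPM and then 256.7 and 118.8 CPM. The terms fitted for Cxcl9 and Ccl5 against the embryonic line start from levels near 0 and are not given. Ccl3 and Ccl4, chemokines of microglia, overlapped, at 196.9 to 325.8 CPM and then 128.8 and 283.4 CPM for Ccl3, and at 88.9 to 322.6 CPM and then 53.4 and 126.4 CPM for Ccl4. Of 21 chemokines and cytokines tested, 3 lay above all earlier samples and 1 below, no more than the 14.7% and 16.4% of all genes.

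Of 35 tested genes of the interferon response, 5 had P1 values below all earlier ones and none above, against 16.4% and 14.7% of all genes, and in 32 both P1 samples lay below the earlier mean. That mean rested on E18 replicate 1, in which the list summed to 3132 CPM against 1098 CPM at E16, 1402 CPM in E18 replicate 2, and 1609 and 875.0 CPM at P1. Irf7, the regulator of this response, was at 20.5, 161.1 and 26.9 CPM and then 26.1 and 11.9 CPM, and Ifit3, one of its targets, at 31.2, 130.9 and 23.6 CPM and then 37.5 and 10.9 CPM. Oas3, an RNA sensor, had the smallest p of the list, with 0.67 to 7.48 CPM and then 0.41 and 0.15 CPM. Of the 35, 1 passed below the embryonic line, Ifi44, against 9.65% of all genes. In cells without proliferation UMIs, 47 of them in P1 replicate 1, 14 of the 35 lay below all earlier samples. The share of all genes was not counted there.

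Genes of axon tract microglia, a phagocytic state of white matter, lay higher at P1 in 7 of 25 tested, none lower, against 14.7% above and 16.4% below among all genes. Their largest differences came from P1 replicate 1. Spp1, which encodes osteopontin, had 181.5, 86.5 and 187.3 CPM before birth and 991.3 and 274.5 CPM after it (log2 fold change 2.13, SE 0.549). Without P1 replicate 1 its difference was 0.8, and in unspliced UMIs it was -0.003. Gpnmb, a membrane glycoprotein of lysosome-rich macrophages, was at 1.01, 0.41 and 2.81 CPM and then 99.2 and 3.21 CPM, and 85.4% of its UMIs in P1 replicate 1 lay in 10 cells. Lpl, the lipoprotein lipase, was more even, at 136.4, 97.5 and 145.2 CPM and then 215.4 and 263.9 CPM (0.93, SE 0.272), with a P1 term of 1.64 (edgeR adjusted p 0.0137). With a curved course its term was 1.69 and did not pass (edgeR adjusted p 0.206). Cd68, a lysosomal membrane protein, had 346.6 to 544.5 CPM and then 620.7 and 997.0 CPM. Apoe and Lgals3 overlapped, at 12470 to 15540 CPM and then 20780 and 9883 CPM for Apoe, and at 31.7 to 48.8 CPM and then 65.6 and 28.1 CPM for Lgals3.

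Markers of border macrophages, the related cells of meninges and vessels, moved with the same sample. The list summed to 3129 CPM at E16, 1389 and 3285 CPM at E18, 5245 CPM in P1 replicate 1 and 2269 CPM in P1 replicate 2. Ms4a7 was at 77.1, 13.7 and 41.2 CPM and then 144.9 and 46.3 CPM, and Mrc1, the mannose receptor, at 296.8, 79.2 and 275.5 CPM and then 548.1 and 244.4 CPM. Ms4a7, Dab2, Folr2 and Cd36 passed above the embryonic line, 4 of 22 tested against 11.1% of all genes. Without E18 replicate 1, 1 of them was left, against 605 of 13017 genes in all. Lgals1, a galectin of the axon tract list and not of this one, had 1010 CPM on average at E12. It stood at 180.8, 21.9 and 57.9 CPM and then 229.6 and 111.9 CPM (P1 term 3.24, edgeR adjusted p 0.00311). Of the 5 samples, Ms4a7, Mrc1 and Lgals1 were all lowest in E18 replicate 1.

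Many genes of mature, homeostatic microglia stood below the embryonic line. Of 32 tested, 4 had P1 values below all earlier ones and 1 above, fewer than the background, but 16 passed below the embryonic line and none above it, against 9.65% of all genes. The second test asks about a continued embryonic course, and Tmem119, for one, had a mean of 94.8 CPM at E12 and 540 CPM at E18. Tmem119 had 257.3, 440.9 and 638.7 CPM and then 271.2 and 592.6 CPM, with a P1 term of -1.25 (edgeR adjusted p 0.0287). Siglech, a lectin of microglia, was at 688.2, 642.0 and 839.2 CPM and then 561.2 and 502.2 CPM (P1 term -1.67, edgeR adjusted p 0.00876), and with a curved course its term was -0.11 (edgeR adjusted p 0.906). Slc2a5 and Selplg had P1 terms of -1.62 and -2.42, with edgeR adjusted p of 0.00334 and 0.000797. Cx3cr1 and Sall1 overlapped, at 785.4 to 1099 CPM and then 975.4 and 581.1 CPM, and at 168.4 to 183.6 CPM and then 226.4 and 124.3 CPM. With a curved course, 4 of the 32 passed below, against 225 of 13296 genes in all.

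Receptors were counted list by list, and differences between the lists were not tested. Of 29 tested receptors for pathogens and cytokines, 9 had P1 values below all earlier ones and none above, against 16.4% and 14.7% of all genes, and 10 of the 30 that could be tested against the embryonic line passed below it, against 9.65% of all genes. Tlr3, a sensor of double-stranded RNA, had 14.1, 39.6 and 21.3 CPM and then 13.7 and 12.1 CPM (P1 term -1.92, edgeR adjusted p 0.00235). Of 26 phagocytic receptors, 3 lay below and 1 above all earlier samples, and one of the 3 was Fcgr4, an Fc receptor, at 38.8, 108.2 and 60.4 CPM and then 30.4 and 28.9 CPM (P1 term -1.95, edgeR adjusted p 0.00177). In TGF-β signalling, which maintains microglial identity, 7 of 23 lay below all earlier samples and 1 above. The median log2 fold change of this list was -0.03, against 0.016 over all genes tested. At an unadjusted p of 0.05 in edgeR's test, 1 of the 23 was lower and 0 higher, against 7.54% and 7.71% of all genes. Smad7, the feedback inhibitor of this signalling, had 107.2, 152.8 and 154.2 CPM and then 89.5 and 82.7 CPM. Tgfbr1, a receptor of the same signalling, had 422.4 to 522.7 CPM and then 349.0 and 280.7 CPM. H2-DMa, a chaperone of antigen presentation and 1 of 2 genes of that list outside the earlier range, had 122.0 to 141.5 CPM and then 80.3 and 73.2 CPM. Of the receptors for pathogens and cytokines, 3 passed below a curved course (225 of 13296 genes in all). Without replicate 2 of E12 and of E18, 4 passed below the line (1079 of 12943 in all).

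**Figure D5:**
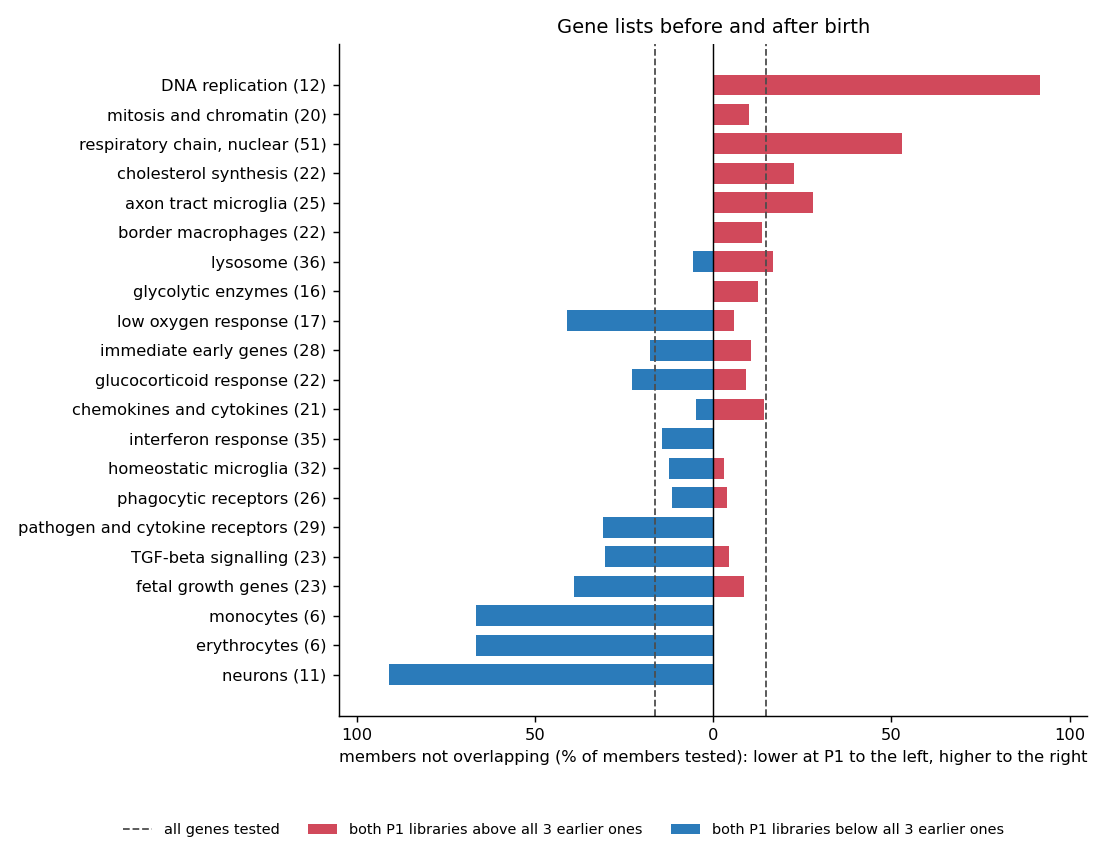
Percentage of the tested members of each list (number in brackets) whose P1 values both lay above (right) or both below (left) all 3 earlier samples; dashed lines give the same for all genes tested, 14.7% above and 16.4% below. Of the lists drawn, which leave out the sex-linked genes and the lists of scarcer cell types, replication genes and nuclear genes of the respiratory chain reach farthest to the right, and markers of neurons, erythrocytes and monocytes farthest to the left.

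The remaining lists are set beside the same 14.7% of all genes above and 16.4% below all earlier samples. In cholesterol synthesis 5 of 22 lay above all earlier samples and none below, with Dhcr7 at 7.14 to 11.8 CPM and then 15.3 and 24.6 CPM (1.03, SE 0.305), and 3 passed above the embryonic line, near the 11.1% of all genes. Among fetal growth genes 9 of 23 lay below and 2 above, and 1 passed on each side of the line, fewer than the 11.1% and 9.65% of all genes. In cells with microglial markers 4 lay below and 3 above, and the share of all genes was not counted there. Igf2bp1, an RNA-binding protein of fetal cells, was at 9.49, 5.25 and 2.41 CPM and then 2.24 and 0.86 CPM after 86.3 CPM on average at E12. Counts above and below all earlier samples were 6 and 2 of 36 lysosomal genes, 0 and 2 of 15 complement genes, 1 and 1 of 19 antigen presentation genes, 2 and 1 of 12 sterol export genes, 4 and 3 of 24 genes of iron and heme, and 1 and 2 of 13 clock genes. Hmox1, which degrades heme, overlapped, at 397.6, 215.1 and 213.0 CPM and then 222.3 and 532.0 CPM. P2ry12 was at 0.92 to 4.59 CPM in all 13 samples. It lies wholly within Med12l on the other strand (chr3:59216272-59262871), and reads of such gene pairs may have been set aside, so no level is read from it.

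Markers of some other cells in the sort were also lower at P1 than at E16 and E18. In 10 of 11 tested neuronal markers both P1 values lay below all 3 earlier ones, against 16.4% of all genes. The list summed to 785.8 CPM at E16, 1002 and 271.9 CPM at E18, and 132.0 and 190.2 CPM at P1. At E12 to E15 it ran from 73.7 to 918.4 CPM, so a sum below those at P1 also occurred before E16. Neurod6, Map2, Elavl3 and Auts2, 4 of the 12 genes leading the lower side, are genes of neurons. Their levels were 55.8, 41.8 and 9.22 CPM and then 2.65 and 4.97 CPM for Neurod6. For Map2 they were 7.64 to 36.9 CPM and then 2.04 and 3.48 CPM, for Elavl3 8.94 to 30.7 CPM and then 3.67 and 3.54 CPM, and for Auts2 17.0 to 30.4 CPM and then 5.91 and 5.65 CPM. Droplets without a cell held neuronal transcripts at 2050 to 8891 CPM. Erythrocyte markers summed to 1055, 182.5 and 472.8 CPM and then 28.7 and 84.7 CPM, with 4 of 6 below all 3 earlier samples. At E12 to E15 their sums ran from 4.85 to 2231 CPM. Hbb-bs, an adult globin, was found in 2545 of 3709 cells at E16. Monocyte markers lay below all 3 earlier samples in 4 of 6, with sums of 54.1, 135.6 and 124.0 CPM and then 34.6 and 16.8 CPM. Both counts stand against the same 16.4% of all genes. Mast cell markers were found at 183.1 and 41.2 CPM at E16 and in E18 replicate 1, and under 1 CPM in the other 3. Restricted to cells with microglial markers, 3 of 11 neuronal, 2 of 6 monocyte and 0 of 6 erythrocyte markers lay below all 3 earlier samples. There, 11 of 12 replication, 27 of 51 respiratory chain and 7 of 17 low oxygen genes lay beyond them as above. The share of all genes was not counted under this filter, so these counts have no background.

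Y-linked genes differed between the pools, whose mix of sexes the labels do not give. Eif2s3y was at 32.6, 38.9 and 32.2 CPM and then 55.8 and 90.2 CPM (1.07, SE 0.256), and Ddx3y at 20.5, 25.6 and 18.2 CPM and then 38.5 and 52.1 CPM (1.08, SE 0.257). Uty was at 15.2, 21.99 and 19.1 CPM and then 23.4 and 26.9 CPM. All 3 stood higher in both P1 pools, and the part of this in other genes was not tested.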

How the data were processed

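The authors prepared 10x Genomics 3′ libraries and deposited a matrix of spliced and a matrix of unspliced UMI counts per sample, aligned to mm10, with Cell Ranger 3.1.0, kallisto and bustools named in the submitters' processing notes. The sources used here do not state how reads of overlapping genes or near-identical copies were treated. The members, gene lists and tests were chosen with earlier results of these data known, and the replication and low oxygen subsets after values were seen.

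From the deposited counts, cells were kept at 500 genes and 20% mitochondrial UMIs or less, with no doublet caller (the alternative without the 5% of cells with the most UMIs stood in for one), and spliced UMIs were summed per sample over 27998 genes, 353 of them kept by identifier only. Sums were tested with edgeR 4.0.16 (TMM, quasi-likelihood, Benjamini-Hochberg adjustment at 0.05) in R 4.3.3. The test across birth used the 5 samples, and the trend test all 13, with age in days from E12 (8 for P1). CPM are TMM-scaled. On simulated counts with a dispersion of 0.107 for every gene, the test across birth recovered 33% of changes of 1.5 on the log2 scale and 100% of those of 3. The trend test recovered 64% and 100%, but at another dispersion, so the 2 tests do not compare. Spread differs between genes in the data, where Egr1 at 3.15 had an edgeR adjusted p of 0.193. These shares therefore do not say which changes would have been called here.

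Named genes were the 12 per direction described, up to 3 members per list and direction with the smallest p, 20 genes named whatever their values, and the 6 per direction with the largest P1 terms; members of the subsets and Folr2 and Gapdh were named after their values were seen. Alternatives were DESeq2 1.42.0, limma 3.58.1 voom, other size factors, no low-count filter, other cell filters, unspliced UMIs, a replicate block, the side of the ribosomal component as a term, other sets of samples and other embryonic courses. Replicate numbers did not pair the samples (correlation of the replicate difference between E18 and P1 -0.087 across genes). Libraries of a group differed by more than counting noise. Some members of the lists are counted but not reported here by name.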

Additional observations from a re-analysis of the deposited data

How the results depend on the processing

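The count of genes called across birth was 0 with edgeR, 377 with DESeq2, 760 without a low-count filter, 448 with all 13 samples, 156 with the side of the ribosomal component as a term and 1 in cells without proliferation UMIs. Leaving out 1 sample gave 0 to 193 genes, 193 of them without E18 replicate 2, 3 without E18 replicate 1 and 1 without P1 replicate 1. With limma voom it was 0, with 1990 genes at an unadjusted p of 0.05. Off the embryonic line lay 2753 genes, 647 with a curved course and 1215 to 2898 with 1 sample left out, the lowest without E18 replicate 1, and 1462 without P1 replicate 2. The share above the line was 53.4%, 65.2% with a curved course and 49.8% to 56.6% with 1 sample left out. With the replicate number as a block, which the samples share as a number only, 0 genes were called across birth and 2969 off the line. The difference in the share of cells with proliferation UMIs kept its direction in each alternative run. At a cut of 1 UMI, however, the groups overlapped (67.9% at E16, 64.7% in P1 replicate 1, exact permutation p = 0.4), and at 2 UMIs only 42.5% against 42.4% set them apart. Single values turned in unspliced UMIs for Tcf19 (-0.155 across birth and -0.399 off the line), Ndufs5 (-0.537 and -0.679), Pgk1 (-1.57 and -1.47) and Spp1 (-0.00259 across birth), and the cause was not tested. Of the 71 genes followed across birth 4 had a reversed value, and of 55 off the line 3. Depth limits P1 replicate 1 most, with 550 cells.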
